A study of Homo sapiens with 6 samples.

Results

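Scavenger receptors and C-type lectins are surface receptors with which phagocytes take up modified lipoproteins, dead cells and microbes. Scavenger receptors are a mixed group defined by the cargo they bind, chiefly oxidized or acetylated lipoproteins and other polyanionic particles. C-type lectins share a fold that in many members binds sugars, and in myeloid cells several of them signal through the kinase SYK. They are best known from macrophages, and several of them are acquired as myeloid precursors mature. The genes considered here were CD36 and SCARB1 (class B scavenger receptors), MSR1 and MARCO (class A), CD163, STAB1, OLR1, CD68, and the lectins CLEC7A and CLEC5A.

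HL60, a line long grown from a human promyelocytic leukemia, was used. Cells treated for 5 days with 1 μM tretinoin (all-trans retinoic acid) in 0.1% DMSO were compared with cells given 0.1% DMSO alone, on 3 Affymetrix HG-U133A arrays per condition. Within a condition, 3 labeling reactions were pooled and then hybridized in parallel, so the spread between arrays is technical and p-values measure only that. A bulk RNA signal does not tell fewer expressing cells from less RNA per cell. Members were all probe sets annotated to exactly 1 gene that is among the 10 named genes, and 19 of the 22283 probe sets on the array met this. They covered 9 of the 10 genes (of 11963 genes with such a probe set), because the probe set that detects CD68, a lysosomal glycoprotein of macrophages, was also annotated to SNORA67 and was left out. The 19 comprised 4 probe sets for MSR1, 3 each for CD36, CD163 and SCARB1, 2 for STAB1, and 1 each for MARCO, OLR1, CLEC7A and CLEC5A. In Affymetrix names, the suffix _s_at marks probe sets that match several transcripts and _x_at marks those open to cross-hybridization.

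Signals are linear MAS5 intensities scaled to the mean of DMSO replicate 1. For means, folds and tests, values below a floor of 20 were set to 20. Mean deposited signal was 91.3 to 132.7 on the tretinoin arrays and 121 to 151.8 on the DMSO arrays, and 12239 to 13397 probe sets exceeded 20 on an array. For ACTB, whose 3′ probe set over its 5′ probe set reflects how intact the labeled RNA was, this quotient was 1.14 to 1.17 on tretinoin arrays and 1.38 to 1.42 on DMSO arrays. The same quotient for GAPDH was 1.15 to 1.19 on tretinoin arrays and 1.06 to 1.17 on DMSO arrays, so it did not follow ACTB. Their part in the results below was not tested. Of the 7 granule genes of promyelocytes that mark HL60, 6 were called lower, and these 6 summed to 216 to 246 in tretinoin and 3786 to 4318 in DMSO. The other, SRGN, was not called, at 2789 to 3039 in tretinoin and 3401 to 3613 in DMSO. Of 13 tested markers of monocytes and macrophages, 7 were called higher (CSF1R only through its tretinoin arrays), 1 was called lower and 5 were not called. The lower one was LYZ, at 298 ± 63.9 in tretinoin and 711 ± 139 in DMSO. The summed signal over 14 genes was 2807 to 2972 in tretinoin and 1109 to 1350 in DMSO. Much of this rise came from VSIG4 alone, at 1110 ± 68.6 in tretinoin and 25.4 ± 6.87 in DMSO. Of 6 tested markers of mature neutrophils 3 were called higher (745 to 827 summed over 8 genes in tretinoin and 302 to 346 in DMSO), with LTF and CAMP at or below 20 on all arrays. What part these cell states have in the levels of the receptors was not tested. Markers of endothelium, a tissue that also carries CD36, OLR1 and STAB1, were at or below 20 on all arrays for all 5 genes (CDH5, VWF, KDR, TEK and CLDN5). In cultures of a leukemia line this was all but fixed in advance. Of 4 tested markers of platelets and megakaryocytes 0 were called. Of 4 tested markers of dendritic cells 1 was called higher and 3 were not called. The called marker was CD1C (142 ± 11.4 in tretinoin), only through its tretinoin arrays.

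limma was run on log2 signal for the 13374 probe sets that exceeded 20 on at least 3 arrays. A probe set was called when its adjusted p was under 0.05 and its fitted change was at least 1.5-fold. Of the 19 probe sets, 9 could be tested, covering CD36, SCARB1, OLR1, STAB1, CLEC7A and CLEC5A. MSR1, CD163 and MARCO had no tested probe set. Of the 9, 4 were called higher (CD36 on 2 probe sets, CLEC7A and OLR1), 0 were called lower by limma and 0 were lower at an unadjusted p under 0.05. Of all probe sets tested, 13.6% were called higher and 13.8% were called lower. The conditions did not overlap for 5 of the 9, against 46.0% of all tested probe sets. The first CD36 probe set below passed the filter only through its tretinoin arrays, so a difference there was bound to appear. The other called CD36 probe set and OLR1 had 1 and 2 DMSO arrays above 20, so they also needed tretinoin arrays to pass. Of the 4 called, only CLEC7A passed on its DMSO arrays alone, and the count of 4 is a description.

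**Figure D1:**
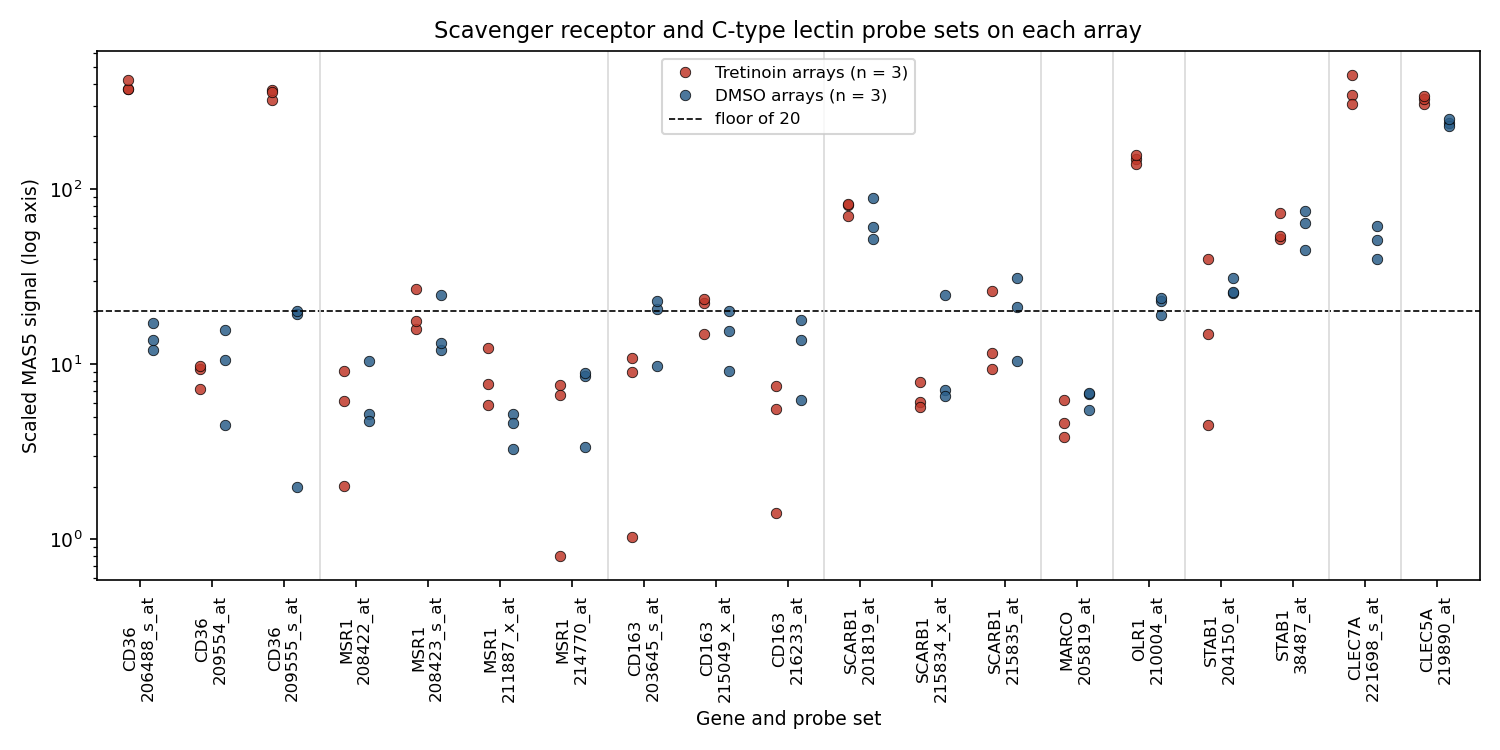
Scaled MAS5 signal (log axis, before the floor was applied) of the 19 probe sets on each tretinoin (red) and DMSO (blue) array, with the floor of 20 as a dashed line. CD36 on 2 of its probe sets, OLR1 and CLEC7A show tretinoin points far above the DMSO points, while MSR1, CD163 and MARCO lie near or under the line in both conditions.

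Sequence upstream of these genes was taken from RefSeq where a window was found (GRCh38.p14, windows of 250 bases before to 50 after an annotated start). None was found for OLR1, CLEC7A or SCARB1, and MSR1 was not looked up. CD36 is shown because its signal changed most, with windows 1 and 3 of its 6, and CLEC5A because its signal was above the floor on every array and it was not called. Capitals mark GAGGAA or its reverse complement TTCCTC, a core bound by the myeloid factor SPI1 (PU.1). The windows are chr7:80601957-80602256 (plus strand) and chr7:80638266-80638565 (plus strand) for CD36 and chr7:141946925-141947224 (minus strand) for CLEC5A.
CD36 window 1: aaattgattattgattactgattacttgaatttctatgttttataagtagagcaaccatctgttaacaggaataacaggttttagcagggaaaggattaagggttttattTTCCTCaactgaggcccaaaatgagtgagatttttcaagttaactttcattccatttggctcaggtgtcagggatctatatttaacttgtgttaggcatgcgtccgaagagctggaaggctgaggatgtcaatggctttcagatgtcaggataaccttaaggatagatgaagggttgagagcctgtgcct
CD36 window 3: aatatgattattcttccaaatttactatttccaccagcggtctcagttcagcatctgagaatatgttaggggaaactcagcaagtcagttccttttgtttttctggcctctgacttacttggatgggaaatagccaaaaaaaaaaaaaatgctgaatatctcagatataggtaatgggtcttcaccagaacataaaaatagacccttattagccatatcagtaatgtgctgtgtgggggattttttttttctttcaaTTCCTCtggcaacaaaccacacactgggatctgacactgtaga
CLEC5A window 1: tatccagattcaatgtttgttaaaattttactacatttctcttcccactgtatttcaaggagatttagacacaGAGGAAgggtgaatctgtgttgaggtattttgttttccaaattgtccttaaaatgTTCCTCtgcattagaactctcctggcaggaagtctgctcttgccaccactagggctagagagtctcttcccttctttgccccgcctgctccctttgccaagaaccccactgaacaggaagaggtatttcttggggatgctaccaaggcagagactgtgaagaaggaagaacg

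The letters GAGGAA or TTCCTC occurred in 4 of the 6 CD36 windows, some of which overlap, and in 8 of the 11 windows found for CD36, CD163, MARCO, STAB1, CD68 and CLEC5A. Of all 35116 promoter windows in the table, 27.9% held them. Windows 3 and 4 of CD36 overlap and hold the same site, which is counted in both. CD36 gave 6 of the 11 windows, so the windows are not independent and no enrichment is read from these shares. The hexamer AGGTCA (or TGACCT), the core of retinoid receptor elements, was in 0 of the 11 windows and in 13.8% of all windows. Direct repeats of the hexamer, searched on both strands with a 1-base or a 5-base spacer, were in 0 of the 11 windows, and in 0.0228% and 0.0057% of all windows. These are matches of letters only. The arrays do not tell which CD36 start was used.

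CD36 binds oxidized lipoproteins, thrombospondin and long-chain fatty acids. It had the largest fitted change of the 6 genes tested, with a well-measured signal in tretinoin and one at the limit of measurement in DMSO. On probe set 206488_s_at the tretinoin arrays gave 375, 373 and 420.3, against 12, 17.2 and 13.8 on the DMSO arrays. Every DMSO value lay under the floor, so CD36 was at least 19.5-fold higher (389 ± 26.9 in tretinoin and at the floor of 20 in DMSO; SD, n = 3 each). On probe set 209555_s_at the values were 324, 367.5 and 356 in tretinoin, against 2.0, 19.4 and 20.2 in DMSO. Only 1 DMSO array exceeded 20 there, by a small margin, and CD36 was at least 17.4-fold higher (349 ± 22.8 in tretinoin and 20.1 ± 0.104 in DMSO). The fitted log2 fold changes were 4.28 ± 0.119 (SE; adjusted p = 4.35e-06 by limma) and 4.12 ± 0.119 (adjusted p = 4.59e-06), which placed these probe sets 17th and 21st from the top of the 13374. The floor removed most of the spread among DMSO arrays, and the size of the fitted change depends on it. With a floor of 40 it was 3.28 and 3.12, and with a floor of 10 it was 4.78 and 4.47.

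The remaining CD36 probe set, 209554_at, gave 7.22, 9.41 and 9.76 in tretinoin, against 4.50, 10.6 and 15.7 in DMSO. It stayed under the floor on all 6 arrays and was not tested, so only 2 of the 3 CD36 probe sets carry the difference.

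SCARB1, the class B relative of CD36 and the receptor for high-density lipoprotein, was not called. Its probe set 201819_at gave 80.9, 70.5 and 82.2 in tretinoin, against 61.1, 51.7 and 89.2 in DMSO. The conditions overlapped, and the DMSO arrays spread more widely (77.9 ± 6.42 in tretinoin and 67.3 ± 19.5 in DMSO; SD, n = 3). The fitted log2 change was 0.24, with a 95% interval of -0.26 to 0.75 (adjusted p = 0.448 by limma), so a change of up to 1.69-fold higher or down to 0.833 of the DMSO level lies within it. On 215835_at, close to the floor, only 1 tretinoin array (26.3) and 2 DMSO arrays (31.1 and 21.3) exceeded 20, and the log2 change was -0.11 (adjusted p = 0.747). On 215834_x_at only DMSO replicate 3 exceeded 20, at 24.7.

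OLR1, also called LOX-1, is a lectin-like receptor for oxidized low-density lipoprotein. Its probe set 210004_at gave 149, 140 and 156 in tretinoin, against 23.0, 23.9 and 19.1 in DMSO. The 3 tretinoin arrays lay close together and far above all DMSO arrays, which stood at the floor or just over it. OLR1 was at least 6.66-fold higher, since 1 DMSO array was set to the floor (148.4 ± 8.31 in tretinoin and 22.3 ± 2.04 in DMSO). The log2 fold change was 2.74 ± 0.131 (SE; adjusted p = 2.66e-05 by limma). It was 1.89 with a floor of 40.

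CLEC7A, or dectin-1, is the receptor for fungal beta-glucan. Its probe set 221698_s_at gave 344, 307 and 449 in tretinoin, against 61.4, 51.0 and 39.9 in DMSO. Of the genes called, only CLEC7A exceeded 20 on every array of both conditions, so its fold needs no bound. CLEC7A was 7.22-fold higher (367 ± 73.8 in tretinoin and 50.8 ± 10.7 in DMSO; SD, n = 3), and the lowest tretinoin array was still well above the highest DMSO array. The log2 fold change was 2.86, with a 95% interval of 2.35 to 3.36 (adjusted p = 1.41e-04 by limma). Of all tested probe sets, 0.516% had a larger rise.

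CLEC5A, or MDL-1, is a myeloid lectin that signals through the adaptor TYROBP. Its signal exceeded 20 on every array of both conditions. Probe set 219890_at gave 306, 325 and 341 in tretinoin, against 240, 229 and 252 in DMSO. The arrays did not overlap, and CLEC5A was 1.35-fold higher (324 ± 17.5 in tretinoin and 240 ± 11.2 in DMSO). The log2 change of 0.43 ± 0.120 (SE) had an adjusted p of 0.0313 by limma but missed the minimum of 1.5-fold, and its 95% interval, 0.15 to 0.72, reached 1.64-fold. CLEC5A kept an adjusted p under 0.05 in 10 of 19 alternative settings. It lost it without scaling, with median scaling, with the replicate number as a block, and with any 1 array left out.

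**Figure D2:**
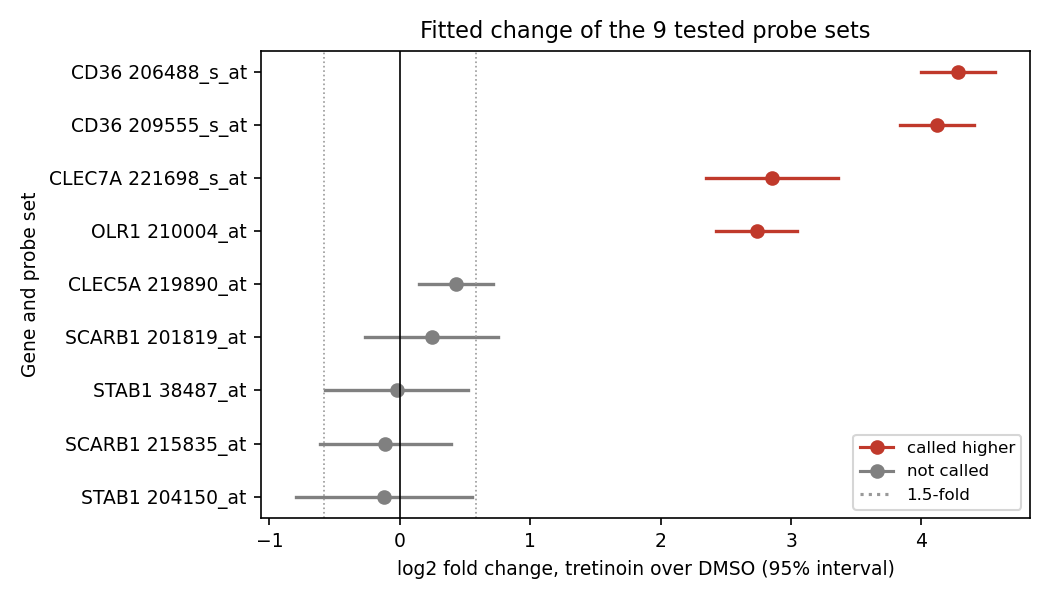
Fitted log2 fold change (tretinoin over DMSO, horizontal axis) with 95% interval for the 9 tested probe sets, red where called higher and gray where not called, with dotted lines at 1.5-fold. The 4 called probe sets lie at 2.74 to 4.28, CLEC5A lies above 0 at 0.43, and the intervals of SCARB1 and STAB1 include 0.

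STAB1 (stabilin-1) is an endocytic receptor for acetylated lipoproteins and matrix proteins. Neither probe set was called. Probe set 38487_at gave 51.9, 72.6 and 53.8 in tretinoin, against 74.8, 44.6 and 63.7 in DMSO, and the conditions overlapped fully (log2 change -0.02, 95% interval -0.57 to 0.52, adjusted p = 0.958 by limma). Probe set 204150_at was uneven in tretinoin, with 4.51, 40.1 and 14.9 in tretinoin, against 31.1, 25.6 and 25.8 in DMSO. Only tretinoin replicate 2 exceeded 20 there, while all DMSO arrays did, and the log2 change was -0.12 (95% interval -0.79 to 0.56, adjusted p = 0.802).

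The other scavenger receptors stood at the limit of measurement in both conditions, and for them no change was detectable, which does not show that none occurred. CD163, the macrophage receptor that clears complexes of haptoglobin and hemoglobin, exceeded 20 in 4 of its 18 values, and the highest was 23.5. On 203645_s_at it gave 10.8, 9.0 and 1.03 in tretinoin, against 20.7, 23.1 and 9.76 in DMSO, while on 215049_x_at it gave 22.3, 23.5 and 14.8 in tretinoin, against 20, 15.5 and 9.19 in DMSO. These probe sets leaned in opposite directions within a range of a few units, and the conditions overlapped on both. The remaining CD163 probe set, 216233_at, gave 5.51, 7.50 and 1.41 in tretinoin, against 17.9, 6.26 and 13.8 in DMSO. MSR1, the class A receptor for acetylated lipoproteins, exceeded 20 in 2 of its 24 values, 1 in each condition, with a highest value of 26.7. On its probe set 211887_x_at the conditions did not overlap, at 7.72, 5.86 and 12.4 in tretinoin and 5.20, 3.28 and 4.59 in DMSO, but every value lay under the floor. MARCO, the class A receptor of tissue macrophages for bacteria and particles, gave 6.21, 4.64 and 3.85 in tretinoin, against 5.50, 6.77 and 6.81 in DMSO. No value of MARCO exceeded 6.81. With the filter removed, 0 of the 10 untested probe sets, which include 209554_at and 215834_x_at, were called, and their log2 changes ran from -0.10 to 0.13 (lowest adjusted p = 0.366 by limma).

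CLEC7A and OLR1 are direct neighbors among the protein-coding genes of chromosome 12 in the RefSeq annotation, within a cluster of lectin-like genes of myeloid and natural killer cells. This was looked up after their values had been seen. Of the 12 protein-coding genes on either side, 13 had a probe set of their own on the array and 6 could be tested. CLEC1A, the next gene beside CLEC7A, gave 35.7 ± 3.38 in tretinoin and 27.5 ± 7.10 in DMSO (SD, n = 3; adjusted p = 0.196 by limma). CLEC2B, CLEC1B and KLRD1 also did not pass (adjusted p = 0.400, 0.811 and 0.807 by limma). GABARAPL1, an autophagy gene beyond OLR1, was called higher, by at least 1.73-fold, at 34.7 ± 6.14 in tretinoin and with all DMSO arrays at the floor. It passed the filter only through its tretinoin arrays, so the direction of this call was fixed by the filter. YBX3, which codes for a nucleic acid binding protein and lies at the far edge, was called lower (273 ± 37.9 in tretinoin and 1127 ± 66.3 in DMSO, 4.13-fold lower). The other 7 genes with a probe set did not reach 20 on at least 3 arrays, and the rest, among them CLEC12A and CLEC9A, had no probe set annotated to them alone. Of the lectin-like genes tested here, CLEC7A and OLR1 were the ones called.

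**Figure D3:**
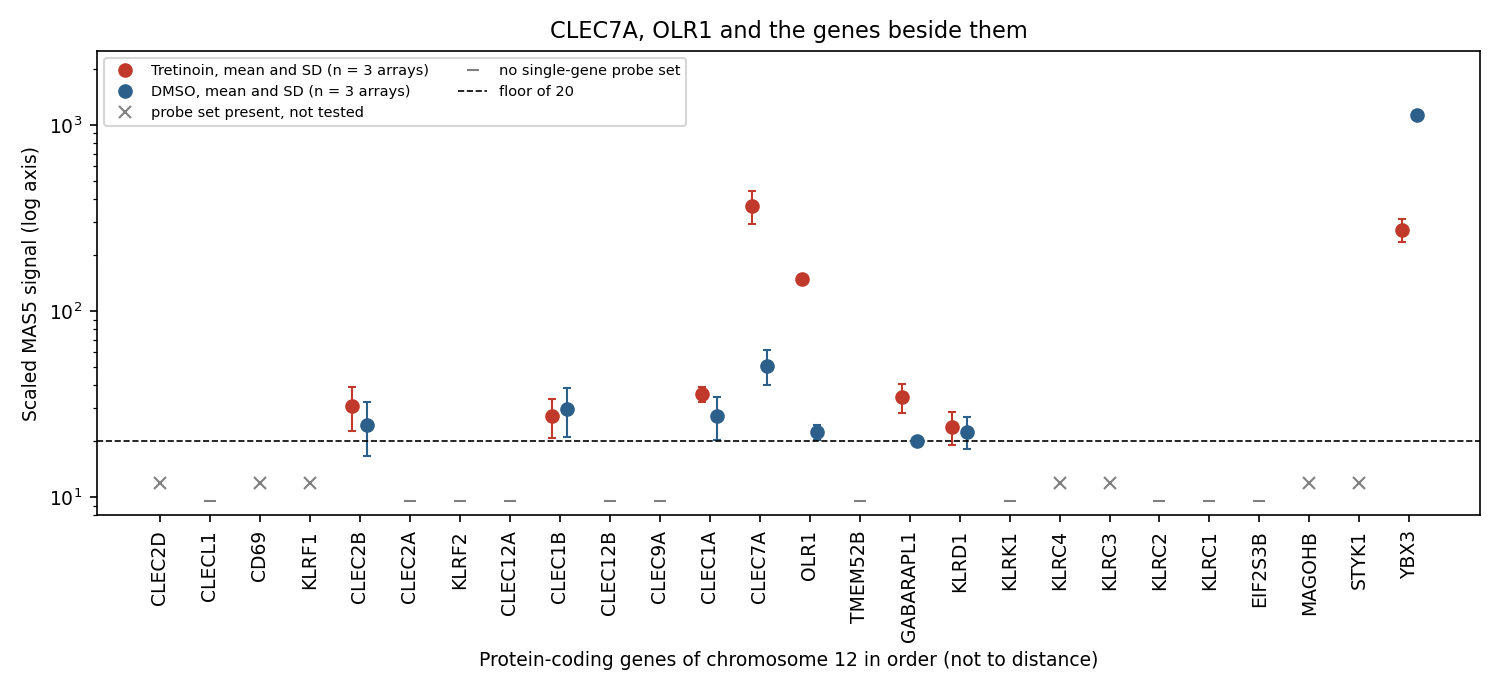
Scaled MAS5 signal (log axis, mean and SD of 3 arrays after the floor of 20) of CLEC7A, OLR1 and the 12 protein-coding genes on each side, in chromosome order, for tretinoin (red, left) and DMSO (blue, right). Crosses mark genes with an untested probe set and dashes those with none. CLEC7A and OLR1 rise together, while CLEC1A, CLEC1B, CLEC2B and KLRD1 lie near the floor in both conditions.

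Over 6 arrays, the genes whose log2 signal most resembled that of CD36 (206488_s_at) were CD300A, an inhibitory receptor of myeloid cells, GLIPR1 and the heat shock gene HSPA6, all with a Pearson correlation of 1.00 after rounding. Each was at the floor on all DMSO arrays, with tretinoin means of 282 ± 22.8, 378 ± 24.1 and 192 ± 15.2. The points share the split into 2 conditions, and 365 of 11666 probe sets of other genes correlated above 0.99, so likeness of this kind is common on these arrays.

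Related receptors and partner genes were taken from 7 lists, each gene represented by its brightest tested probe set. Of 63 tested genes, 25 were called higher, 7 were called lower and 31 were not called, with a median log2 change of 0.41. Of all 8167 genes tested in this way, 13.5% were called higher and 14.3% were called lower, with a median of -0.04. The lists were chosen with earlier results of these data known, so their counts and medians are a description only. Of 16 tested other C-type lectins, 4 were called higher and 12 were not called (median 0.19). FCER2 (CD23), the low-affinity IgE receptor, was at least 5.32-fold higher (111 ± 11.2 in tretinoin and 20.8 ± 1.36 in DMSO; SD, n = 3). CLEC4A, an inhibitory lectin of myeloid cells, was at least 2.97-fold higher, CLEC10A, a galactose-type lectin of macrophages, at least 1.90-fold higher and MRC2, an endocytic collagen receptor, 1.57-fold higher. CLEC4A and CLEC10A had no DMSO array above 20 and passed the filter only through tretinoin, so 2 of the 4 calls could only be higher. FCER2 had 1 DMSO array above 20, as did THBS1 below, and STAB2 and HMOX1 below had 2. These genes therefore also needed tretinoin arrays to pass the filter. The fungal-glycolipid receptor CLEC4E averaged 20.7 in tretinoin and 23.3 in DMSO, and was not called. Of 5 tested other scavenger receptors, LGALS3 (galectin-3) was called 5.87-fold higher and STAB2, the paralog of STAB1, at least 1.54-fold higher, and 3 did not pass (median 0.61).

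Below the lectins, 5 of 9 tested signaling genes were called higher and 4 were not called (median 0.62). TYROBP, the adaptor of CLEC5A, was 7.22-fold higher (3307 ± 141 in tretinoin and 458 ± 23.5 in DMSO). The phosphatase PTPN6 was 2.43-fold, the kinase PRKCD 1.81-fold, the paracaspase MALT1 1.55-fold and the phospholipase PLCG2 1.54-fold higher. SYK, the kinase that CLEC7A engages, was not called, at 72.2 ± 3.74 in tretinoin and 76.8 ± 17.8 in DMSO (adjusted p = 0.828 by limma).

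Among partners and ligands of CD36, 5 of 9 were called higher and 1 was called lower (median 0.65). Thrombospondin-1 (THBS1), a ligand of CD36, was at least 41.4-fold higher (833 ± 25.1 in tretinoin and 20.1 ± 0.236 in DMSO, where 1 array exceeded 20). Of the Src-family kinases linked to CD36, LYN was 3.70-fold higher, while FYN was lower at 63.7 ± 6.41 in tretinoin, against 210.4 ± 23.5 in DMSO (adjusted p = 2.23e-04 by limma). FCER1G, an adaptor with an activation motif, was 8.12-fold higher, the integrin chain ITGB1 1.72-fold higher and the thrombospondin receptor CD47 1.57-fold higher. TLR4 and TLR6, which act with CD36 in sensing oxidized lipoprotein, were not called (adjusted p = 0.623 and 0.275 by limma). Although CD163 itself was barely measured, HP (haptoglobin), whose complex with hemoglobin it binds, was 4.02-fold higher (266 ± 23.0 in tretinoin and 66.2 ± 10.3 in DMSO). HMOX1, which breaks down heme, was at least 1.90-fold higher and the ferritin chain FTL 1.56-fold higher, so that 3 of 5 tested genes of this list were called higher (median 0.64).

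Genes that handle lipid cargo were split, with 3 of 16 called higher, 6 called lower and 7 not called (median -0.04). NPC2 and NPC1, which move cholesterol out of lysosomes, were 9.32-fold and 1.55-fold higher, and the cholesterol exporter ABCA1 was 2.23-fold higher. The fatty acid carrier FABP5 was lower at 52.6 ± 11.0 in tretinoin, against 462 ± 53.5 in DMSO. The lipoprotein receptors LRP8 (47.3 ± 4.28 in tretinoin and 169 ± 6.77 in DMSO) and VLDLR (31.3 ± 5.49 and 84.8 ± 1.6) were lower, as were lipoprotein lipase LPL (162 ± 17.5 and 341 ± 36.8), the lysosomal lipase LIPA and the retinoid X receptor RXRA. PPARG, a nuclear receptor known to drive CD36 in macrophages, was not called, at 33.2 ± 6.64 in tretinoin and 32.9 ± 2.23 in DMSO (adjusted p = 0.989 by limma). Of 5 tested lysosomal membrane proteins, which include the relatives of CD68, 4 were called higher (median 0.70), among them CD63 (3.44-fold), LAMP2 (2.08-fold) and LAMP1 (1.63-fold). TYROBP, FCER1G, NPC2 and LRP8 may belong to a set of 90 transcripts picked by the study from these same arrays, so their direction is not taken as independent evidence. The 10 receptors are not in that set.

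**Figure D4:**
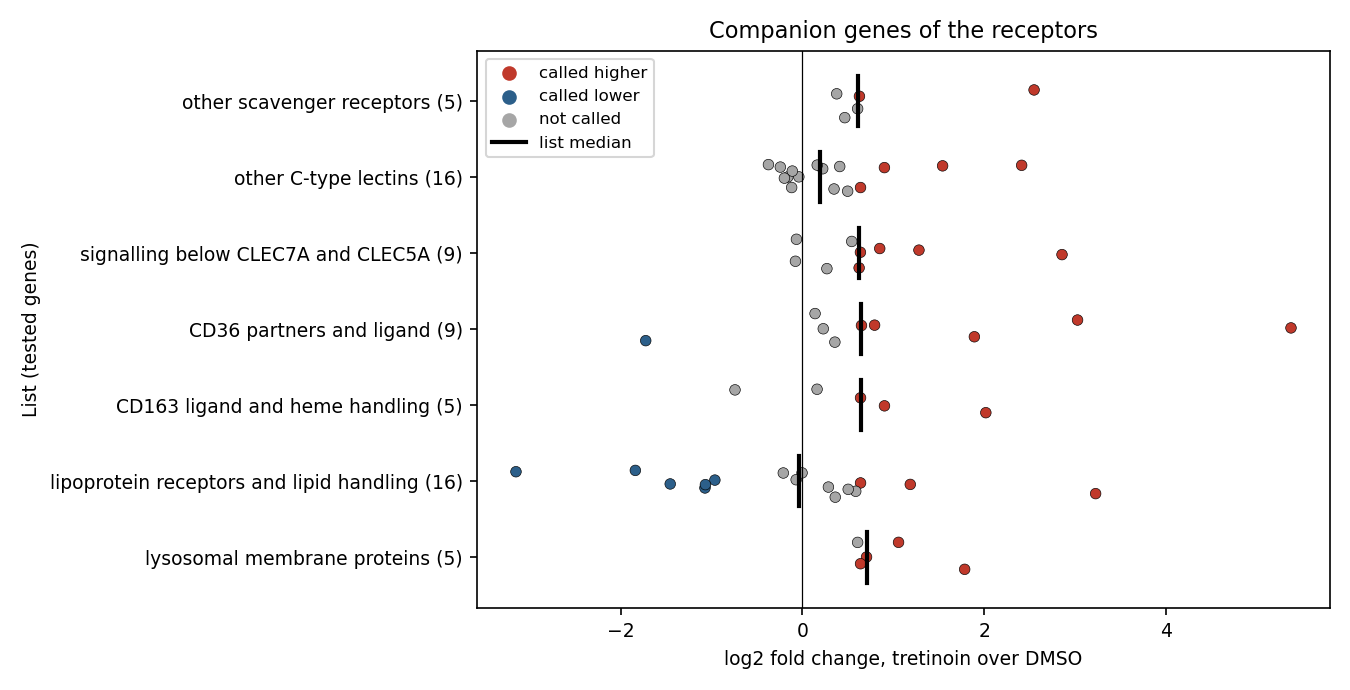
Fitted log2 change, tretinoin over DMSO, for every tested gene in the 7 lists of related receptors and partners, with the number tested in brackets, red where called higher, blue where called lower and gray where not called, and black bars at the list medians. THBS1 lies farthest to the right, and 6 of the 7 genes called lower are in the lipid handling list.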

How the data were processed

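The deposited table holds linear MAS5 signal intensity values for 22283 HG-U133A probe sets, made by the authors without scaling between arrays (MAS5 version not given in the sources used here). As in the study's methods, each of the 6 arrays was multiplied to equal mean signal (factors 0.820 to 1.36) and values below 20 were set to 20. The fit used limma 3.58.1 in R 4.3.3, on log2 values with a mean per condition, and Benjamini-Hochberg adjustment over all 13374 tested probe sets. Folds are ratios of condition means, and lower bounds where an array of the lower condition was set to the floor. Such bounds allow for the floor only and not for the spread between arrays. The number of arrays limits the precision: changes of about 2-fold can be missed by this test, so a gene not called is not shown to be unchanged.

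Probe sets were named from GEO's platform annotation, in which 19071 of them have 1 gene, and 19059 of these matched RefSeq by gene identifier. Promoter windows were looked up for 9 genes (the named genes with CD68 but without MSR1) and found for 6. OLR1, CLEC7A and SCARB1 had none. All member probe sets are described, as are at most 5 called genes per list, called genes of the neighborhood, and genes most like CD36. Members and lists were chosen with earlier results of these data known, and the uncalled genes named, the neighborhood and the motifs were chosen with values in view.

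Alternatives were other scalings (none, median, trimmed mean with 2% trimmed from each end, quantile), floors of 10 and 40, an offset of 16 without a floor, other filters, the replicate number as a block, a trended or robust prior variance, other fold minimums, each array left out and another probe set per gene. Python 3.11.15, numpy 2.4.6, pandas 2.3.3 and matplotlib 3.10.9 were used.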

Additional observations from a re-analysis of the deposited data

How the results depend on the processing

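CD36 (209555_s_at), OLR1 and CLEC7A were called higher under every alternative in which they could be tested, with log2 changes of 3.12 to 4.47, 1.89 to 2.79 and 2.51 to 3.00. CD36 (206488_s_at) was called in all 15 such alternatives (3.28 to 4.78) but fell under the filter whenever a tretinoin array was left out. The count of 4 higher member probe sets was 1 (CLEC7A) where a signal above 20 was required on all 6 arrays, because fewer probe sets were then tested, and 5 (with CLEC5A) with no fold minimum. No member was called lower under any of the 21 alternatives. Companion genes called higher numbered 25, but 15 without scaling, which moves the median log2 change of all tested probe sets to -0.21, against -0.03 with it, and 13 with a 2-fold minimum. Companion genes called lower ranged from 6 to 8. The uncalled STAB1 changes turned sign: 204150_at was 0.0012 with a floor of 40 and -0.45 to 0.048 with 1 array left out, and 38487_at was -0.23 to 0.14 with 1 array left out, at 0.066 and 0.041 without tretinoin replicates 1 and 3 and at 0.14 and 0.024 without DMSO replicates 1 and 3. With the replicate block, 4 member probe sets and 21 companion genes were called higher. Arrays with the same number deviated together with correlations of -0.03 to 0.07, and arrays with different numbers with -0.06 to 0.07. No pairing by number was seen. Deviations from a condition mean balance out within the condition, so this check cannot show that pairing is absent. The block changed no member's call.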
